A study of Homo sapiens with 16 samples.

Results

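The p53 target genes described here are 9 genes that the transcription factor p53 is known to activate: MDM2, GADD45A, SESN1, TP53INP1, BTG2, PLK3, TP53I3, XPC and DDB2. The 9 genes were chosen with earlier results of these data known. Their entries were taken by name, as those of the deposited intensity table whose symbol is one of the 9. This gave 12 of the 20589 entries of the table, which carry 18190 symbols, and each was kept separate. An entry is called a probe here, although 1497 entries, none of them a member, have detection p-values in finer steps than the other 19092 and may each combine several probes. Of the 12 probes, 10 were above background often enough to be tested, among 11957 tested probes in all.

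The probes were read on Illumina human Ref8v2 bead arrays from MCF10A cells, a nontransformed human breast epithelial line. The cells grew in serum-free medium with insulin, epidermal growth factor and hydrocortisone, and parallel plates were harvested every 3 h from 0 to 45 h, with 1 array at each of 16 time points. The 0 h plate was untreated and the other 15 plates received CP724,714, an inhibitor of the HER2 kinase, at 1 µM, with fresh medium given at the start of treatment. There was no replicate array and no series without inhibitor, so the effects of the inhibitor, of the medium change and of time in culture cannot be told apart. Between 10325 and 10889 probes, or 50.1% to 52.9% of the table, were above background (detection p under 0.05) on an array.

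The transcription factor p53 is held at a low level in unstressed cells by MDM2, a ubiquitin ligase that is itself a p53 target and so closes a feedback loop. After DNA damage and other stress, p53 accumulates and activates genes for growth arrest, DNA repair, antioxidant defence and cell death. Several of these genes also respond to other inputs, and BTG2 and GADD45A are among those that growth factor and stress signals change without p53.

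The label of the cells was checked against marker genes. Of 8 breast epithelial markers, 6 were above background on all 16 arrays, while KRT14 was above background on 1 array and TP63 on 10. Some of the 6 were not steady: KRT6A and KRT17 rose by 1.01 and 1.10 from 0 and 3 h to 6 and 9 h, fell by 1.07 and 0.86 from there to 12 to 21 h, and from the first 4 to the last 4 arrays fell by 1.10 and rose by 0.69. From 24 to 33 h to 36 to 45 h KRT17 and EGFR ILMN_2682 rose by 0.73 and 0.67 and KRT6A and KRT18 ILMN_22543 fell by 0.68 and 0.56, and from the first 4 to the last 4 arrays 2 EGFR probes differed in sign, ILMN_2682 at 1.00 and ILMN_15848 at -0.72. ESR1 and PGR, the hormone receptors of luminal cells, and all 4 fibroblast markers were not above background on any array. Some markers of other cell types were above background: CD68 on all 16 arrays, from 8.86 to 10.24, CD14 on 12, from 5.55 to 7.83, and PECAM1 on 15, from 6.01 to 7.61. From the first 4 to the last 4 arrays limma called all 3 higher, CD68 by 0.68, PECAM1 by 0.84 in log2, and CD14, with 0 of the first 4 arrays above background, at least 2.73-fold. From 0 and 3 h to 6 and 9 h CD68 rose by 0.63. From 6 and 9 h to 12 to 21 h PECAM1 rose by 0.69 and CD14 at least 1.66-fold, and from 24 to 33 h to 36 to 45 h CD68 rose by 0.38 and CD14 by 1.02. PTPRC and FABP4 were above background on 5 arrays each, and CD3E, VWF, CDH5, ADIPOQ and PLIN1 on none. The part of these markers in the changes of the p53 target genes was not tested.

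All levels are log2 of background-corrected, quantile-normalized intensity and are compared within a probe only, since probes differ in how strongly they bind. The courses were tested with limma as a smooth curve over time, and as steps between 5 consecutive windows of time (0 and 3 h, 6 and 9 h, 12 to 21 h, 24 to 33 h, and 36 to 45 h). A change was called when its adjusted p was under 0.05. Windows hold consecutive time points and not replicates, so the SD given with a window mean includes the change within the window.

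Promoter sequence of DDB2, SESN1 and MDM2 is shown because their windows held the half-sites or a close pair of them. The windows came from RefSeq (GRCh38.p14), 300 bases each, with 250 before and 50 after a gene start. Of the 9 genes, 7 matched, with 13 windows in all, and GADD45A and TP53INP1 had none. The windows were searched on both strands for the p53 half-site consensus, 10 letters, and for CATG, which can lie within a half-site but need not. The half-site was found in 2 of the 13 windows, beside 6.63% of all 35116 windows, and CATG in 6, beside 54.9%. A pair of half-sites with no mismatch and a spacer of up to 13 bases was found in 1 DDB2 window, and 10 of all windows held one, or 0.0285%. It starts at base 6 after the DDB2 start, at chr11:47214979-47214999 on the plus strand, and its capitals mark the half-sites around a spacer of 1 base:
DDB2: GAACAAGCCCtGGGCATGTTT
In SESN1 the half-site lies at chr6:109009018-109009037 on the minus strand, where capitals mark the matching 10 bases and lower case the rest, and the pair has 3 mismatches in all, as 39.1% of all windows do or better:
SESN1: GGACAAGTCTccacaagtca
Another SESN1 window held a pair with 2 mismatches and a spacer of 11 bases, at chr6:109095058-109095088 on the minus strand, which is not shown.
In MDM2 the closest pair lies at chr12:68808923-68808942, at position -94 from a start, with 2 mismatches, as 7.82% of all windows do or better. It is shown in capitals within 90 bases of chr12:68808903-68808992 on the plus strand:
MDM2: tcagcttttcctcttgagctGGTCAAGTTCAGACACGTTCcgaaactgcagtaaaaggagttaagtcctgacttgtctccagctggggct
Each match is a description of letters in a window.

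MDM2, the ligase of the feedback loop, had 3 probes, and all were near background. The probe ILMN_22160 was above background on 5 arrays, those of 3, 12, 18, 21 and 42 h, with a lowest level of 5.63, a median of 5.94 and a highest of 6.27. The other 2 probes, ILMN_21265 and ILMN_7169, were above background on no array, with levels of 5.37 to 5.87 and 5.18 to 5.48. Of the 5 arrays on which ILMN_22160 was above background, 3 were among the 4 of 12 to 21 h, and 0 of 4 were above background at 24 to 33 h and 0 of 2 at 6 and 9 h. MDM2 was not called in any comparison, and at these intensities a change in it would be hard to detect.

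GADD45A, BTG2 and PLK3 act in growth arrest and the response to DNA damage. GADD45A encodes a stress-induced protein that binds PCNA and cyclin-dependent kinase complexes. Its lowest level was 9.68 at 30 h, its median 10.08 and its highest 11.63 at 0 h, a range of 3.88-fold. It stood at 11.63 and 11.26 at 0 and 3 h, at 10.62 and 10.06 at 6 and 9 h, and between 9.68 and 10.09 on the 8 arrays from 12 to 33 h. It was then between 10.30 and 10.48 at 36 to 45 h, above all 8 of those arrays and below the first 3 time points. The early decrease of GADD45A was spread over 3 intervals, with steps of -0.38 from 0 to 3 h, -0.64 from 3 to 6 h and -0.56 from 6 to 9 h. Its largest rises between arrays were 0.41 from 33 to 36 h and 0.37 from 21 to 24 h.

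BTG2 encodes an antiproliferative protein that recruits a deadenylase to messenger RNA. Its level was 9.60 at 0 h, 8.11 at 3 h, 7.93 at 6 h and 7.53 at 9 h, then 8.49 at 12 h. From 12 to 45 h it stayed between 8.33 and 8.79. The 0 h array was thus the highest, the 9 h array the lowest, and the 12 later arrays lay between them, all above the 3, 6 and 9 h arrays. The step from 0 to 3 h alone was 2.81-fold down and that from 9 to 12 h 1.95-fold up, each between 1 array and the next. PLK3, a stress-responsive kinase of the polo family, lay between 6.44 and 7.14 with a median of 6.76, close to background. Its first 4 arrays were at 7.05 to 7.14, and later arrays reached 6.98 at 21 h, 7.06 at 24 h and 7.01 at 45 h, so early and late arrays overlapped. PLK3 moved up and down between neighbours, with its largest single step, of -0.50, from 24 to 27 h.

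SESN1, TP53INP1 and TP53I3 act in stress and redox responses. SESN1 encodes a sestrin, which lowers oxidative stress and restrains mTORC1 signalling. It was at 10.04 at 0 h and at 8.69, 8.72 and 8.61 at 3, 6 and 9 h, and it lay between 9.17 and 9.75 on the 12 arrays from 12 to 45 h. The 0 h array was therefore above all other arrays, and the next 3 were below all later ones. The 0 to 3 h step was 2.54-fold down, and the 9 to 12 h step was 0.56 up. SESN1 was thus already at its low level on the 3 h array, on which GADD45A, TP53INP1, XPC and DDB2 were still above their 6 h levels. Their steps from 3 to 6 h were -0.64, -1.91, -0.57 and -0.82, beside -0.18 for BTG2 and -0.06 and -0.33 for the TP53I3 probes.

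TP53INP1 encodes a nuclear protein that promotes p53 phosphorylation and autophagy. Its lowest level was 7.89 at 9 h, its median 8.62 and its highest 10.78 at 0 h, and its range of 7.45-fold was the widest among the 9 tested probes above background on all arrays. It was at 10.78 and 10.33 at 0 and 3 h, at 8.42 and 7.89 at 6 and 9 h, and between 8.29 and 8.71 from 12 to 30 h. It then stood at 9.02 at 33 h and at 9.90, 9.94, 10.06 and 10.15 from 36 to 45 h. The first 2 and the last 4 arrays did not overlap with any array from 6 to 33 h. Its largest steps between neighbouring arrays were 3.75-fold down from 3 to 6 h and 1.83-fold up from 33 to 36 h.

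TP53I3, a quinone oxidoreductase also called PIG3, had 2 tested probes. The probe ILMN_2007 was between 12.46 and 12.71 from 0 to 9 h, between 11.51 and 11.99 from 12 to 33 h, and between 12.33 and 12.47 from 36 to 45 h. The middle 8 arrays were below all others, and the last 4 overlapped with the 9 h array. The borders of this trough were sharp, with steps of 1.57-fold down from 9 to 12 h and 1.51-fold up from 33 to 36 h. The probe ILMN_21366 lay close to background, with 7.21 and 7.41 at 0 and 3 h, 7.08 and 6.87 at 6 and 9 h, and 6.50 to 6.85 on the 12 later arrays. Its first 4 arrays were above all 12 later ones, and the levels of the 2 probes had r = 0.57 across 16 arrays.

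XPC and DDB2 recognise DNA damage in global genome nucleotide excision repair. XPC was at 10.51 and 10.09 at 0 and 3 h, at 9.52 and 9.67 at 6 and 9 h, between 9.82 and 10.04 from 12 to 30 h, and at 10.20 at 33 h. It was at 10.42, 10.45, 10.18 and 10.41 from 36 to 45 h. The arrays of 6 and 9 h were below all others, and the last 4 lay within the range of the first 2. DDB2, the gene of the pair without mismatch, was at 9.47 and 9.17 at 0 and 3 h, at 8.34 and 7.87 at 6 and 9 h, between 7.70 and 8.01 from 12 to 33 h, and at 7.51, 7.38, 7.24 and 7.77 from 36 to 45 h. Its first 2 arrays were above all others and its lowest was that of 42 h, a range of 4.67-fold. Its largest steps were 1.77-fold down from 3 to 6 h and 1.43-fold up from 42 to 45 h, and the next largest was 1.38-fold down from 6 to 9 h.

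**Figure D1:**
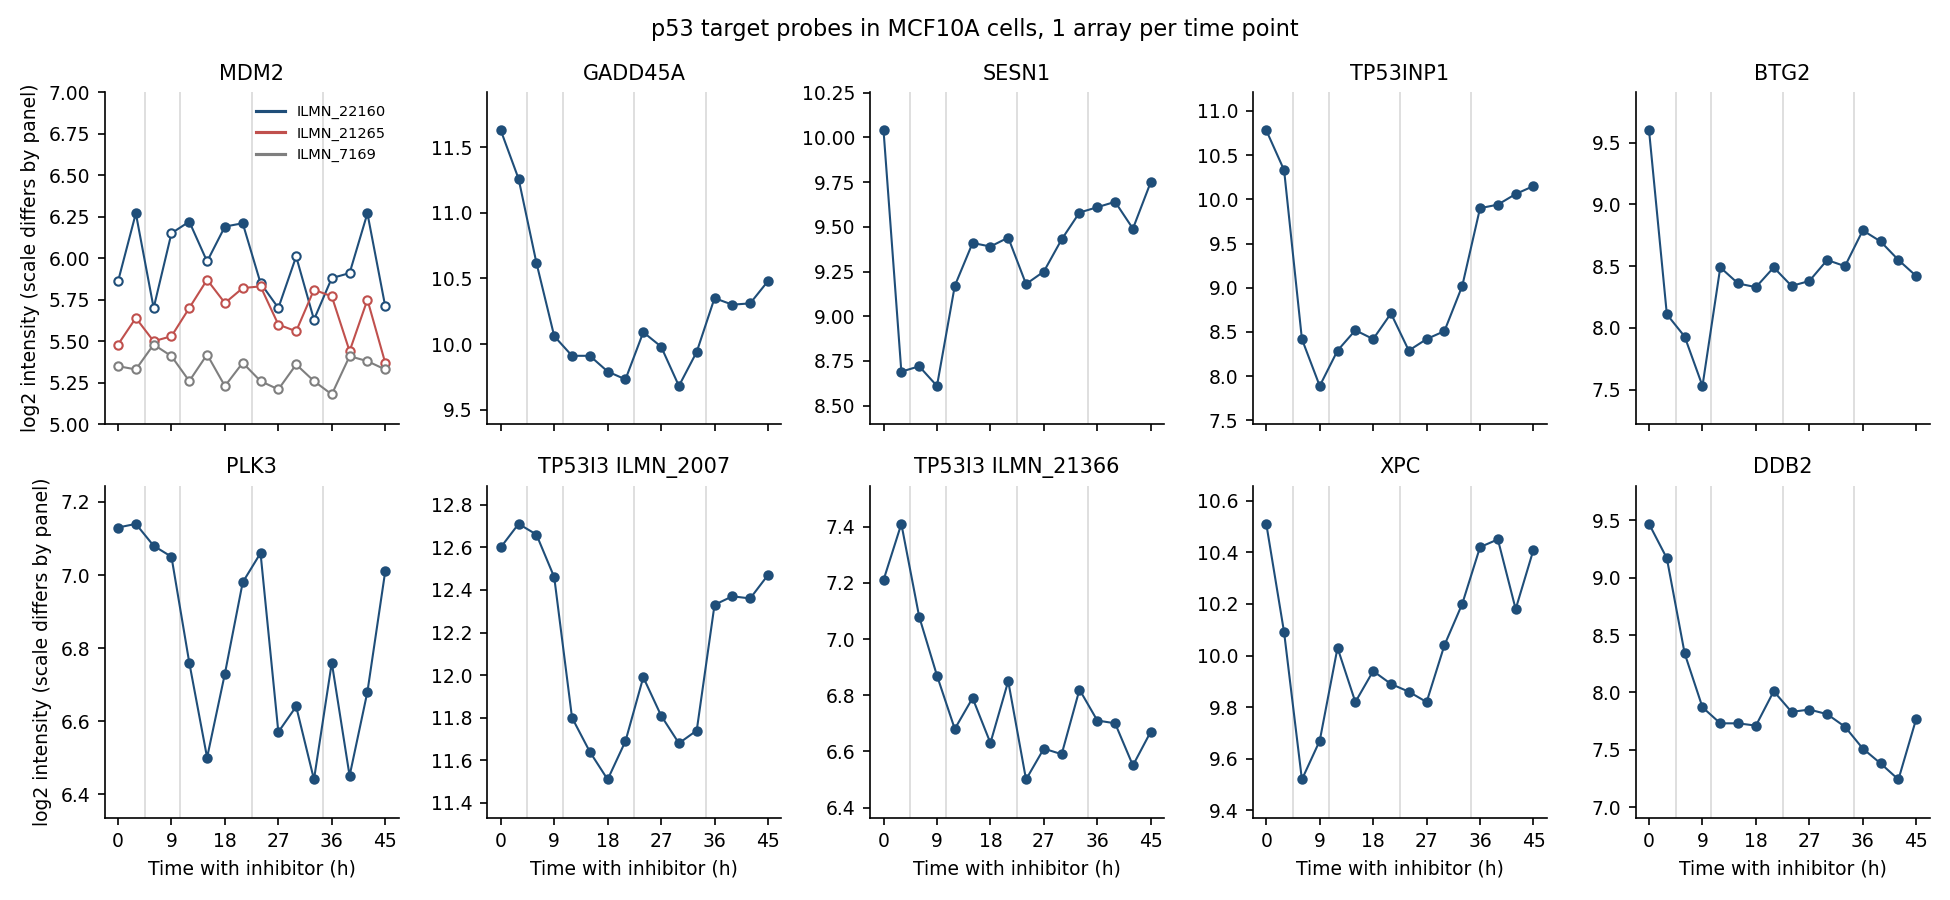
Log2 intensity (y axis, scale differs by panel) of the 12 probes of the 9 p53 target genes against time with inhibitor in h (x axis), 1 point per array; open circles are arrays not above background and grey lines part the 5 windows. TP53INP1 lies at 10.78 at 0 h, 7.89 at 9 h and 10.15 at 45 h, while DDB2 ends at 7.77 after 9.47 at 0 h.

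Which of the 9 genes changed over time was asked with the smooth curve. Of the 10 tested probes, 6 were called, beside 54.7% of all tested probes. They were GADD45A (adjusted p = 1.3e-06), DDB2 (adjusted p = 1.2e-05), TP53INP1 (adjusted p = 5.9e-05), both probes of TP53I3 (adjusted p = 1e-04 and 0.0025) and XPC (adjusted p = 0.0081). MDM2, SESN1, BTG2 and PLK3 were not called, with adjusted p of 0.44, 0.12, 0.16 and 0.094. The share among the p53 target probes was thus near that of all probes. A straight line in place of the curve called 2 of the 10 probes, and a curve with 5 degrees of freedom called 8, with SESN1 (adjusted p = 0.0025) and BTG2 (adjusted p = 0.0044) among them. Without 0 h SESN1 (adjusted p = 0.00011, with up to 0.26 over its alternatives) and BTG2 (0.017, with up to 0.72) were called, and without 24 h PLK3 was (0.035, with up to 0.28).

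The first step asked what differed between 6 and 9 h and the untreated and 3 h arrays. Of the 10 probes 5 were called lower, beside 11.1% of all tested probes, and 0 were called higher by limma, beside 13.5%, with 6 probes at an unadjusted p under 0.05. TP53INP1 went from 10.56 ± 0.32 (SD, n = 2 arrays) to 8.16 ± 0.38 and fell by 2.40 (SE 0.22, adjusted p = 3.6e-07), or 5.29-fold. DDB2 fell by 1.21 (SE 0.19, adjusted p = 1e-04), from 9.32 ± 0.21 to 8.11 ± 0.33. GADD45A fell by 1.10 (SE 0.16, adjusted p = 5.9e-05), and XPC by 0.70 (SE 0.15, adjusted p = 0.0014). For these 4 genes and for BTG2, both later arrays were below both earlier ones.

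BTG2 fell by 1.13 (SE 0.29, adjusted p = 0.0069) in the first step, and this call rested on single arrays. Without 0 h the change was -0.38 (adjusted p = 0.21, the highest among its alternatives), without 9 h it was -0.93 (adjusted p = 0.094), and without 3 h it was -1.87. SESN1 had a change of -0.70 (95% CI -1.24 to -0.16, adjusted p = 0.056) and was not called. The other 4 tested probes were not called, with changes of -0.07 for PLK3 (95% CI -0.51 to 0.37) and, for TP53I3 ILMN_21366, -0.34 (95% CI -0.67 to 0.00). The decreases were called over a few hours that also followed the medium change, with 2 arrays on each side.

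The second step compared 12 to 21 h with 6 and 9 h, and here members had calls in both directions. Of the 10 probes, 2 were called higher and 2 lower, beside 12.8% and 12.6% of all tested probes. TP53I3 ILMN_2007 fell by 0.90 (SE 0.09, adjusted p = 2.3e-06), from 12.56 ± 0.14 to 11.66 ± 0.12, with all 4 later arrays below both earlier ones. GADD45A fell by 0.51 (SE 0.14, adjusted p = 0.012), to 9.84 ± 0.09 (SD, n = 4 arrays). Without 6 h the GADD45A change was -0.23 and was not called (adjusted p = 0.36, the highest among its alternatives), and without 9 h it was -0.78. Against all of 0 to 9 h it was -1.06. The other 6 probes were not called. Their changes were 0.33 for XPC (adjusted p = 0.063), 0.33 for TP53INP1, -0.31 for DDB2, -0.32 for PLK3 and -0.24 for TP53I3 ILMN_21366, and MDM2 was not above background at 6 or 9 h. Under median scaling XPC was called higher at 0.44.

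SESN1 and BTG2 rose in the second step, each by 0.69 and 1.61-fold, with all 4 later arrays above both earlier ones. For SESN1 the adjusted p was 0.030, and 7 of 24 alternatives ended the call. Among them were leaving out 6 h (0.75), 9 h (0.63), 15 h (0.67), 18 h (0.68) or 21 h (0.66), and its change against all of 0 to 9 h was 0.34. For BTG2 the adjusted p was 0.048, and 18 of 24 alternatives ended the call, including leaving out any 1 time point from 6 to 42 h, with a change of 0.49 without 9 h, 0.89 without 6 h and between 0.67 and 0.72 without each of the others. It was 0.42 with no background correction and 0.13 against all of 0 to 9 h. The adjusted p went up to 0.28 for SESN1 and 0.78 for BTG2 over the alternatives.

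The third step, 24 to 33 h against 12 to 21 h, had few calls in the whole table. By limma 0 of the 10 probes were called in either direction, beside 0.00836% of all tested probes called higher and 0.0585% called lower (37 higher and 7 lower under median scaling, in place of 1 and 7), and 1 probe, MDM2, had an unadjusted p under 0.05. MDM2 was above background on 3 of 4 arrays of 12 to 21 h and on 0 of 4 of 24 to 33 h. The bound that background sets on its change, at least 1.03-fold lower, carries no sampling error. By limma the change was not called (adjusted p = 0.62), so no decrease is shown. The window means were 9.84 and 9.92 for GADD45A, 8.49 and 8.56 for TP53INP1, and 7.80 and 7.80 for DDB2. With 4 arrays on each side, the intervals of the probes other than MDM2 allow small changes in either direction.

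The fourth step compared 36 to 45 h with 24 to 33 h. Of the 10 probes 4 were called higher, beside 22.6% of all tested probes, and 0 lower by limma, beside 22.7%, with 5 probes in all at an unadjusted p under 0.05. TP53INP1 rose from 8.56 ± 0.32 to 10.01 ± 0.11 (SD, n = 4 arrays), a change of 1.45 (SE 0.15, adjusted p = 3.5e-07), or 2.73-fold. TP53I3 ILMN_2007 rose by 0.58 (SE 0.07, adjusted p = 3.8e-06), a change that median scaling of the arrays puts at 0.36, still called. GADD45A rose by 0.44 (SE 0.11, adjusted p = 0.0039) and XPC by 0.39 (SE 0.10, adjusted p = 0.0043). For TP53INP1, TP53I3 and GADD45A all 4 later arrays were above all 4 earlier ones, and for XPC 3 of 4 were.

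SESN1, BTG2, PLK3, MDM2 and the second TP53I3 probe were not called in the fourth step. The intervals were -0.26 to 0.36 for PLK3 and -0.21 to 0.27 for TP53I3 ILMN_21366. DDB2 differed in sign, with a change of -0.32 (adjusted p = 0.058) that was not called. Under median scaling, and with no intensity trend in the prior variance, 1 probe was called lower. Beside the 4 probes called higher, the share of all probes called higher was smaller, but no test of that difference was made.

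**Figure D2:**
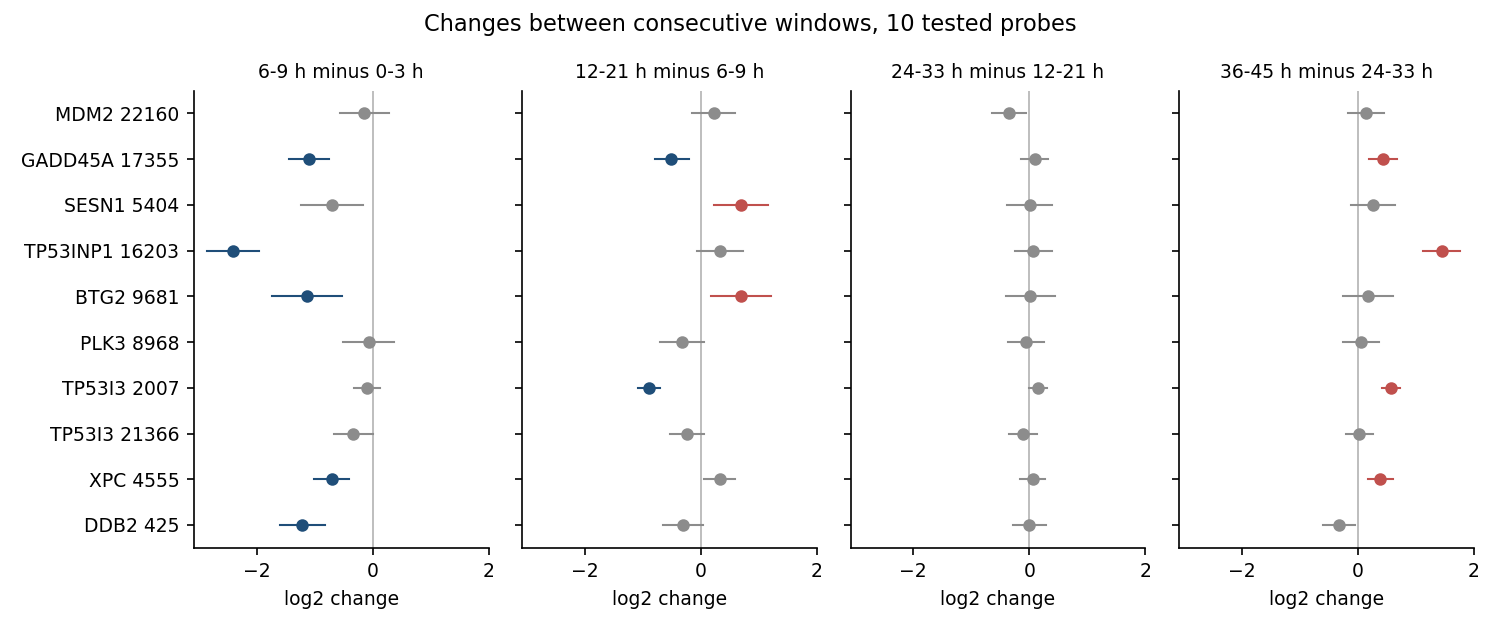
Log2 change (x axis) of the 10 tested probes (y axis, symbol and probe number) in the 4 steps between consecutive windows; dots are limma estimates, bars 95% confidence intervals, blue is called lower, red called higher and grey not called, and MDM2 was near background. In the first step 5 probes are blue and in the fourth 4 are red, with TP53INP1 at -2.40 and 1.45.

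How the end of the course compared with its start depended on which early arrays were taken. For 36 to 45 h against all of 0 to 9 h, 1 of the 10 probes was called higher, beside 16.2% of all tested probes, and 3 lower, beside 15%. The last of these shares depends on the scaling, since median scaling called 1029 of all probes lower in place of 1797. DDB2 fell by 1.24 (SE 0.24, adjusted p = 0.00094), with all 4 late arrays below all 4 early ones. TP53I3 fell by 0.23 on ILMN_2007 (adjusted p = 0.037) and by 0.49 on ILMN_21366 (adjusted p = 0.0055). The call of the first of these was lost in 10 of 25 alternatives, with a highest adjusted p of 0.17, and among them without 3 h (-0.19), 6 h (-0.21), 36 h (-0.21), 39 h (-0.22) or 42 h (-0.22). Without background correction the changes of ILMN_21366 and DDB2 were -0.21 and -0.79, both called. SESN1 rose by 0.61 (SE 0.22, adjusted p = 0.047), and 20 of 25 alternatives ended that call, including leaving out any 1 time point other than 0 h, with changes of 0.47 to 0.65. Without 0 h the SESN1 change was 0.95 (adjusted p = 4.5e-06), and for 42 and 45 h against 0 and 3 h it was 0.26 (adjusted p = 0.50, the highest).

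GADD45A, TP53INP1, BTG2, PLK3 and XPC were not called between these windows, with changes of -0.53, 0.65, 0.33, -0.37 and 0.42. Single arrays decided several of them. Without 9 h GADD45A was called at -0.81 (adjusted p = 0.0011, with up to 0.23 over its alternatives). Without 0 h TP53INP1 was called at 1.13 (adjusted p = 0.020, with up to 0.76). Also without 0 h BTG2 and XPC were called at 0.77 and 0.61, with adjusted p of up to 0.85 and 0.99 over their alternatives. PLK3 was called without 24 h (-0.37) and without 45 h (-0.47). For 42 and 45 h against 0 and 3 h the sign of TP53INP1 turned to -0.46 and that of BTG2 to -0.36, neither called, and GADD45A was called at -1.05. Median scaling put XPC at 0.55, called, while over its other alternatives its change went as low as 0.

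Because the first 4 arrays span the early fall, the last 4 were also set against each early pair, in 2 contrasts chosen after seeing the data. Against 0 and 3 h, 5 of the 10 probes were called lower, beside 16.8% of all tested probes, and 0 higher by limma, beside 18.4%, with 6 probes in all at an unadjusted p under 0.05. DDB2 fell by 1.84 (SE 0.16, adjusted p = 1.1e-07), or 3.58-fold, and GADD45A by 1.08 (SE 0.14, adjusted p = 8.3e-06). TP53I3 fell by 0.28 and 0.66 on its probes (adjusted p = 0.024 and 0.0012), and TP53INP1 by 0.55 (adjusted p = 0.029). XPC had a difference of 0.07 (95% CI -0.19 to 0.33) and BTG2 one of -0.23 (95% CI -0.76 to 0.29), neither called, and these intervals do not show that the levels were equal. PLK3 was not called either, at -0.41 (95% CI -0.79 to -0.03, adjusted p = 0.091).

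The TP53INP1 call against 0 and 3 h was lost without 0 h (-0.32, adjusted p = 0.32, the highest among its alternatives), without 36 h (-0.51), without 39 h (-0.52) and under median scaling (-0.34). That of TP53I3 ILMN_2007 was lost without 3 h (-0.22), without 36 h (-0.26), under median scaling (-0.19) and with no intensity trend. Without background correction the change of TP53I3 ILMN_21366 was -0.29 and that of DDB2 -1.21, both called. Median scaling called 1067 of all probes lower in place of 2014 in this contrast. It moved the median of all tested probes to 0.10, and relative to it DDB2 changed by -1.73, TP53INP1 by -0.44 and the TP53I3 probes by -0.29 and -0.63.

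Against 6 and 9 h, 4 of the 10 probes were called higher, beside 19% of all tested probes, and 1 lower, beside 19.7%. TP53INP1 rose by 1.86 (SE 0.19, adjusted p = 5.6e-07), SESN1 by 0.96 (SE 0.22, adjusted p = 0.0022), BTG2 by 0.89 (SE 0.25, adjusted p = 0.008) and XPC by 0.77 (SE 0.13, adjusted p = 8.2e-05). DDB2 fell by a further 0.63 (SE 0.16, adjusted p = 0.0046). GADD45A had a difference of 0.02 (95% CI -0.28 to 0.31) and was not called. Without 9 h the BTG2 call was lost (0.69, adjusted p = 0.12, the highest among its alternatives), and without 6 h that of DDB2 was lost (-0.40, adjusted p = 0.14, the highest). Without background correction the changes of BTG2 and DDB2 were 0.56 and -0.36.

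**Figure D3:**
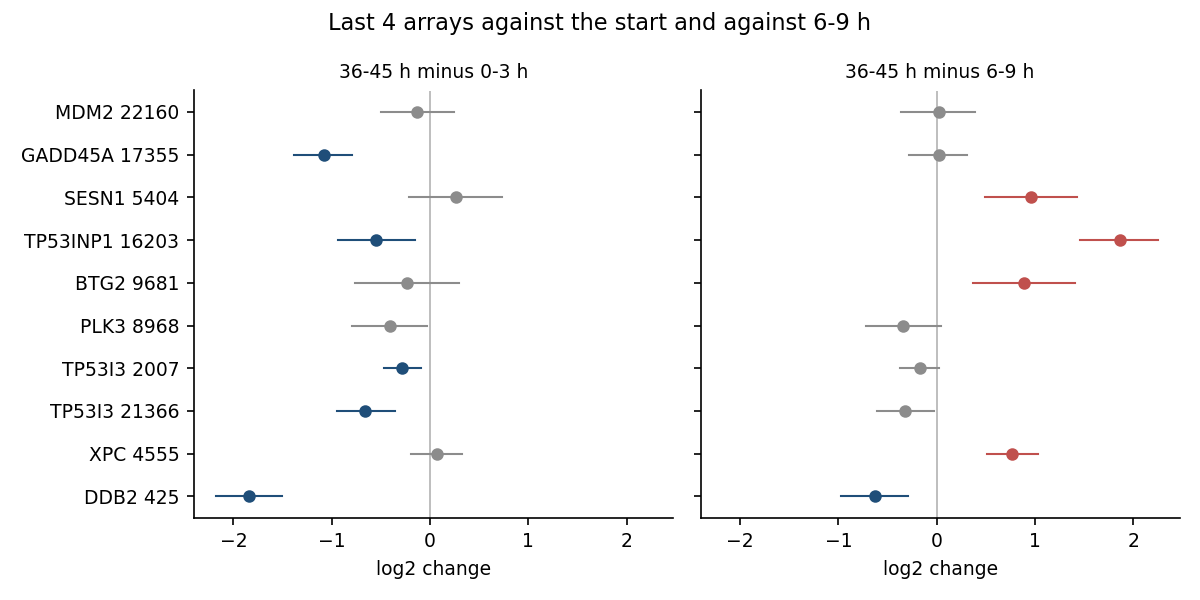
Log2 change (x axis) of the last 4 arrays, 36 to 45 h, against 0 and 3 h and against 6 and 9 h for the 10 tested probes (y axis, symbol and probe number), with limma estimates as dots, 95% confidence intervals as bars, blue for lower, red for higher and grey for not called. DDB2 is lower in both panels, at -1.84 and -0.63, and TP53INP1 is at -0.55 and 1.86.

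Among the members, similarity of course was described by Pearson's r across the 16 arrays, which share 1 time order. The highest values were 0.87 for SESN1 and BTG2, 0.83 for TP53INP1 and XPC, and 0.82 for GADD45A and TP53I3. GADD45A and DDB2 had r = 0.78 and so did SESN1 and XPC, while XPC and DDB2, which serve the same repair pathway, had r = 0.04. SESN1 had r = -0.12 with DDB2 and -0.34 with PLK3. The courses were thus of several kinds. The lowest array was that of 9 h for SESN1, BTG2 and TP53INP1, that of 6 h for XPC and that of 42 h for DDB2. A lower level at 36 to 45 h than at 0 and 3 h was not particular to DDB2, since GADD45A had a change of -1.08 there.

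The tested probes of other genes most like the members above background on all arrays were found by the same measure over 16 arrays. They were DHRS3 (r = 0.98), PRODH and WDSUB1 for GADD45A, and GADD45G (0.97), MYLIP and NFKBIA for SESN1. For TP53INP1 they were ACVR1, TMEM125 and SLC43A2 (0.97 each), and for BTG2 TNNI2 (0.95), PAFAH1B1 and CXCR4. NAGK and FTH1 (0.98 each) and H2BFS were nearest to TP53I3, KLF6 and CLK1 (0.94 each) and SIPA1L2 to XPC, and HES6 (0.96), PCYT2 and HINT2 to DDB2. Those nearest to PLK3 were C9orf21, SPAG9 and TNFRSF11B (0.84 each).

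Beside the 9 members, 50 other p53 targets were listed, of which 44 were tested. In the first step 17 were called lower and 2 higher, beside 11.1% and 13.5% of all tested probes, with a median change of -0.37 beside -0.01 for all tested probes, and 37 of the 44 changes were below 0. GDF15, a stress-induced cytokine, fell by 3.00 (adjusted p = 6e-07), or 7.99-fold, NINJ1, an adhesion protein, by 1.48, and CDKN1A, the cell cycle inhibitor p21, by 0.87 (SE 0.13, adjusted p = 5.3e-05). FBXO22 and TGFA rose by 0.68 and 0.65, and without 0 h or without 9 h 0 of the 44 were called higher. CDKN1A stood at 13.87 and 13.44 at 0 and 3 h, 12.99 and 12.57 at 6 and 9 h, and 12.96 to 13.36 from 12 to 45 h, so that its first 2 arrays were above all others. Its entry is among the 1497 with finer steps of detection p and may combine several probes.

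In the second step 6 of the 44 were called higher and 9 lower, beside 12.8% and 12.6% of all tested probes, with GDF15 and RRM2B up by 0.78 and 0.50 and SFN and ALDH4A1 down by 0.65 and 0.57. Median scaling turned this split to 10 higher and 3 lower, and without 6 h, 9 h or 15 h it was 4 and 2, 3 and 12, and 3 and 5. In the third step limma called 0 of them, with 4 at an unadjusted p under 0.05 and 1 called under median scaling, and in the fourth 17 were called higher and 8 lower, or 38.6% and 18.2% beside 22.6% and 22.7% of all tested probes, with a median of 0.16, and STEAP3 and GDF15 rose by 0.90 and 0.78 while TIGAR and AEN fell by 0.82 and 0.69. From 0 to 9 h to the last 4 arrays 6 were higher and 11 lower, or 13.6% and 25% beside 16.2% and 15% of all tested probes: CCNG1, ANKRA2, STEAP3 and RRM2B rose by 0.61, 0.58, 0.53 and 0.50, and BAX, SFN, TIGAR and LIF fell by 1.17, 1.14, 1.12 and 0.77. Median scaling gave 9 higher and 6 lower for this comparison, and leaving out 0 h gave 10 and 10. CDKN1A changed by 0.06 there and was not called, and it was 0.38 lower than at 0 and 3 h (adjusted p = 0.012) and 0.50 higher than at 6 and 9 h (adjusted p = 0.0013).

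**Figure D4:**
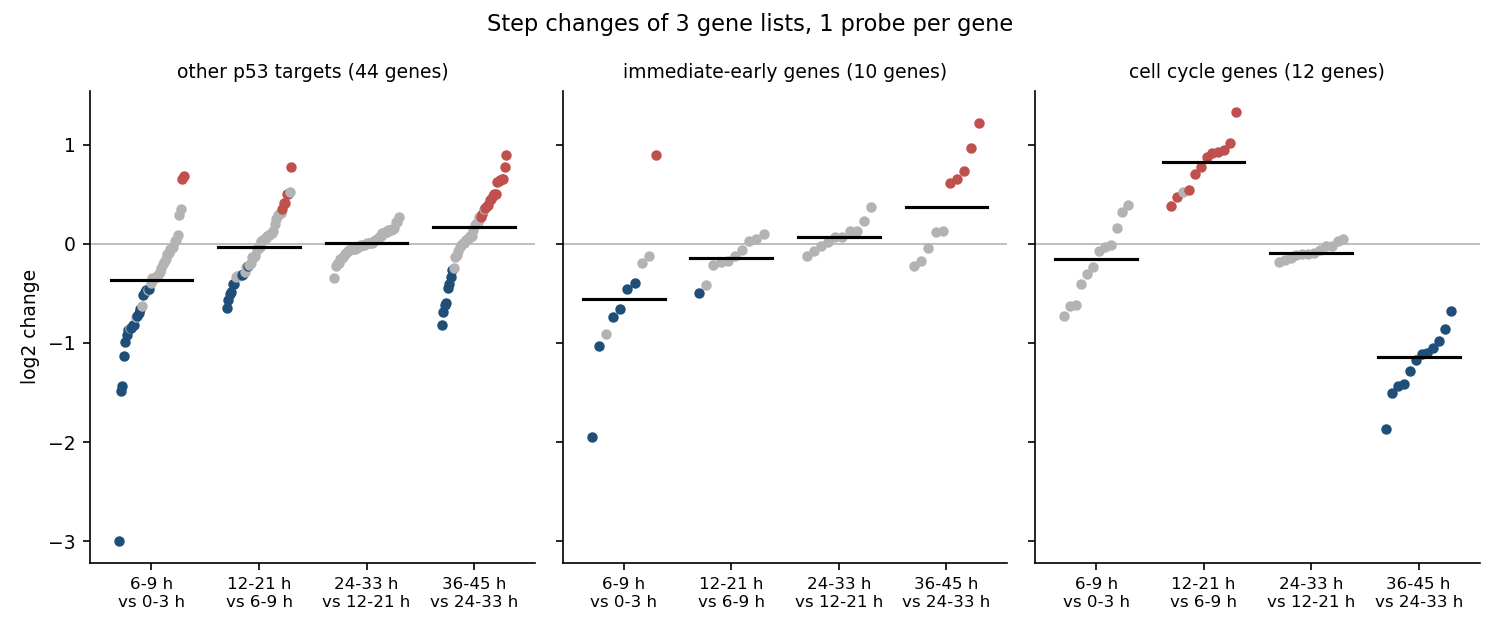
Log2 change (y axis) of each gene in the 4 steps between consecutive windows (x axis) for 44 other p53 targets, 10 immediate-early genes and 12 cell cycle genes; blue points are called lower by limma, red higher and grey not called, and black lines are medians. The median of the other p53 targets is -0.37 in the first step and 0.16 in the fourth, and that of the cell cycle genes is -1.14 in the fourth.

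Of 22 listed genes of p53 regulation, 17 were tested. MDM4, the relative of MDM2 that also binds p53, was between 5.41 and 5.93 and not above background on any array. TP63, a p53 family member of basal epithelium, was at least 2.55-fold higher in the last 4 than in the first 4 arrays (adjusted p = 6.7e-07), on which it was not above background. In the first step 3 of the 17 were called higher, USP7, PRMT5 and HIPK2 by 0.50, 0.49 and 0.39, and 2 lower, CREBBP by 0.67 and SIRT1 by 0.56, or 17.6% and 11.8% beside 13.5% and 11.1% of all tested probes. Without 0 h, and likewise without 9 h, 1 was called in each direction. In the third limma called 0, with 1 at an unadjusted p under 0.05. In the fourth TP63 rose by 1.15, while CHEK1 fell by 0.68, PRMT5 by 0.53 and USP7 by 0.34.

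Relatives of the members had calls in both directions. Of 13 tested, 1 was called higher and 3 lower in the first step, 3 and 1 in the second, 0 by limma in the third, with 1 at an unadjusted p under 0.05, and 4 and 3 in the fourth, with 3 higher and 2 lower from first to last. Beside these stand 13.5% and 11.1% of all tested probes in the first step, 12.8% and 12.6% in the second, 22.6% and 22.7% in the fourth and 16.2% and 15% from first to last. The 3 higher in the second step became 1 without 6 h, 9 h, 12 h, 15 h or 18 h and 5 under median scaling, and the 3 lower in the first became 5 without 3 h. TP53INP2, the paralogue of TP53INP1, fell by 1.29 and 1.58 in the first and second steps and rose by 2.22 in the fourth. It was at 9.80 and 10.04 at 0 and 3 h, 9.37 at 6 h and 7.88 at 9 h. The arrays of 6 and 9 h were thus far apart, and the size of each of its falls depends on both. BTG1, the paralogue of BTG2, fell by 1.29 in the first step (adjusted p = 1.7e-05) and rose by 1.28 in the fourth, and of the other BTG and TOB genes TOB1 fell by 0.94 in the first, TOB2 rose by 0.56 in the second and BTG3 fell by 0.48 in the fourth. GADD45B rose by 0.45 in the first step (adjusted p = 0.043), a call that ended under cyclic loess, with no filter, with no intensity trend and without 3 h, 6 h, 21 h, 24 h, 30 h or 39 h. It rose by 0.73 in the fourth step and by 0.97 from first to last, when GADD45G rose by 1.07. GADD45G did not end above its start: it was at 9.77 at 0 h and between 8.89 and 9.49 at 36 to 45 h. Against 0 and 3 h its change was 0.58 and was not called by limma (adjusted p = 0.28). PLK1 and PLK4, kinases of mitosis and centriole copying, each rose by 0.70 in the second step, fell by 1.11 and 1.20 in the fourth, and were 0.87 and 0.76 lower at the end.

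Other nucleotide excision repair genes, 21 tested of 22, moved in both directions, with shares of 14.3% higher in the first step, 28.6% and 9.52% in the second, and 23.8% and 38.1% in the fourth, beside the shares of all tested probes given above. In the first step 3 were higher, ERCC2, GTF2H4 and ERCC1 by 1.18, 0.69 and 0.47, and 0 lower by limma, with 0 lower at an unadjusted p under 0.05 and 1 called lower without 6 h, while XPC and DDB2 fell. In the second 6 were higher, among them LIG1 and GTF2H3 by 1.05 and 0.61, and 2 lower, XPA by 0.51 and CETN2 by 0.45, while without 6 h 2 were higher and 1 lower. In the third limma called 0, with 1 at an unadjusted p under 0.05 and 1 called under median scaling. In the fourth 5 were higher, ERCC5, ERCC6, XPA, DDB1 and CETN2 by 0.42, 0.41, 0.36, 0.32 and 0.17, and 8 lower, among them LIG1 and GTF2H3 by 1.39 and 0.79, while median scaling gave 2 and 10 and leaving out 24 h, 39 h or 45 h gave 3 higher. From first to last DDB1, the partner of DDB2 in the damage recognition complex, rose by 0.42 where DDB2 fell by 1.24, ERCC5 rose by 0.30, and LIG1 and RPA2 fell by 0.63 and 0.33. In that comparison 3 were higher and 4 lower, or 14.3% and 19% beside 16.2% and 15% of all tested probes. Median scaling gave 4 higher and 2 lower there. Not every gene of this list called in that comparison is named.

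Of 12 cell cycle genes repressed downstream of p53, 0 were called by limma in the first step, with 1 higher and 4 lower at an unadjusted p under 0.05 and up to 2 higher or 1 lower without 1 of 3, 6, 21, 33, 36 and 45 h, 11 rose in the second with a median of 0.83, beside 12.8% of all tested probes, and all 12 fell in the fourth with a median of -1.14, beside 22.7%. BIRC5 and CCNB1 rose by 1.33 and 1.02 in the second step, E2F1 fell by 1.87 and CCNA2 was next in the fourth, and without 9 h 6 of the 12 were called in the second. From first to last 8 were lower, beside 15%, and, by limma, 0 higher, and in the third step limma called 0, in both cases with 0 such genes at an unadjusted p under 0.05. Of 10 tested immediate-early genes, which growth factors induce within minutes, 6 were lower and 1, MYC by 0.90, was higher in the first step, beside 11.1% and 13.5% of all tested probes, with a median of -0.56, and 3 were lower without 0 h. FOS fell by 1.95 in that step, from 12.24 and 10.13 at 0 and 3 h to 9.10 and 9.38 at 6 and 9 h. The 0 h array thus carried much of the fall of FOS. EGR2 was at least 1.60-fold lower, since it was not above background at 6 and 9 h. ZFP36 fell by 0.50 in the second step, a call that ended under median scaling and without 6 h, and in the third limma called 0, with 0 at an unadjusted p under 0.05. In the fourth 5 rose, DUSP1 by 1.22, FOS by 0.97, EGR1 by 0.65, ZFP36 by 0.61 and EGR2 at least 1.19-fold, with a median of 0.37 and beside 22.6% of all tested probes, and at the end DUSP1 and EGR1 were 1.24 and 0.38 higher than in the first 4 arrays and IER2 and IER3 0.68 and 0.45 lower.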

How the data were processed

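The authors deposited bead intensity values on a linear scale, without scaling the arrays to each other. The detection p-value that they deposited with each intensity compares it with negative control beads. From these, normexp in limma 3.58.1 (R 4.3.3) removed background, with the control level estimated from the detection p-values of the 19092 entries taken as single probes and 16 added as an offset. Quantile normalization and log2 followed. A probe was tested if its detection p was under 0.05 on 3 or more of 16 arrays. The limma tests were an F-test of the time curve (natural cubic spline, 3 degrees of freedom), a contrast in a fit of 4 windows, and contrasts in a fit of 5 windows. Benjamini-Hochberg adjustment ran over all tested probes. A change against a side with no array above background is given as a bound or not given, except as a point in a plot.

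The members, the gene lists and the windows were chosen with earlier results of these data known. All probes of the members are named. For a list gene the tested probe of highest mean intensity was used. Named list genes are the 4 largest called rises and falls from first to last for the other p53 targets, 2 for the other lists, the 2 largest in a step, and CDKN1A and MDM4. Further list genes, named where 5 or fewer were called, and the added contrasts of the last 4 arrays against each early pair were chosen after seeing the data. The tests were tried first on simulated data with known changes.

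Alternatives were other choices of background correction, offset (50), scaling between arrays (median, cyclic loess), filter, curve, windows and prior variance, and leaving out each time point.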

Additional observations from a re-analysis of the deposited data

Results flagged for a closer look

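In windows of 4 arrays, the 10 tested probes gave 40 groups, and in 4 of them 1 array stood apart from the other 3. The windows hold consecutive times and not replicates, and chance alone sets apart about 1 in 20 such groups. SESN1 was at 10.04 at 0 h, and the nearest of 3 to 9 h was 8.72. MDM2 was at 5.98 at 15 h, with the nearest of its window at 6.19, both near background. XPC was at 10.18 at 42 h, with the nearest at 10.41. DDB2 was at 8.01 at 21 h, with the nearest at 7.73.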

How the results depend on the processing

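Over 43 single-gene results and their alternatives, 1021 values in all, 930 kept the direction and the side of the threshold, 72 lost a call, 15 gained one and 4 changed sign. The sign changes were in the last against the first 4 arrays: MDM2 from -0.06 to 0.04 without 3 h and 0.02 without 45 h (-0.16 to 0.04 leaving out 1 time point), and, for 42 and 45 against 0 and 3 h, TP53INP1 to -0.46 and BTG2 to -0.36. The first-step falls of GADD45A, TP53INP1, XPC and DDB2, the second-step fall of TP53I3 and the 4 fourth-step increases kept their calls in all alternatives run.

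Counts of called member probes moved as follows. The spline called 6, a straight line 2, 5 degrees of freedom 8, and leaving out 1 time point 6 to 8. In the second step 2 were higher. That count was 1 with no background correction, 1 with an offset of 50, 1 with no filter, 0 with no intensity trend, 0 against 0 to 9 h, 3 under median scaling, and 0 to 3 leaving out 1 time point. The 2 lower became 4 against 0 to 9 h and 1 to 2 leaving out 1 time point. In the fourth step 0 were lower, with 1 under median scaling, 1 with no intensity trend and 0 to 1 leaving out 1 time point. From first to last 1 was higher. That count was 0 with no background correction, no filter, no intensity trend, only the 8 arrays, or 42 and 45 against 0 and 3 h. It was 2 under median scaling, 2 with the strict filter and 0 to 4 leaving out 1 time point. The 3 lower became 1 with the strict filter. In the added contrast against 0 and 3 h, 0 to 2 were higher and 3 to 6 lower leaving out 1 time point, and 3 were lower under median scaling and 3 with the strict filter. Against 6 and 9 h the 1 lower became 0 with the strict filter, 2 with no intensity trend and 0 to 1 leaving out 1 time point. Where the strict filter gave fewer calls, fewer probes were tested; otherwise the cause was not tested.

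Over all probes, a straight line called 1950 in place of 6535. The share of called probes that were higher went from 54.9% to 65.1% in the first step under median scaling, from 50.4% to 70.8% in the second, from 12.5% to 84.1% in the third, where 44 were called in place of 8, from 49.8% down to 37.3% in the fourth, from 51.8% to 73.1% from first to last from 52.2% to 74.8% against 0 and 3 h and from 49.1% to 63% against 6 and 9 h. Leaving out 0 h or 9 h, 1956 or 1644 probes were called in the first step in place of 2951. Leaving out 6 h, 1350 were called in the second in place of 3042. The MDM2, PLK3 and second TP53I3 probes are near background, where the offset shrinks changes.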
